A study of Mus musculus with 172 samples.

Results

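The cells described here are the single inner cell mass (ICM) cells of OCT4-expressing blastocysts at embryonic day (E) 3.5. They were chosen by their labels alone, as the E3.5 cells of genotype WT or HET, and number 58 of the 172 cells of the series, from 7 of 19 embryos. WT stands for embryos with both copies of Pou5f1, the gene that encodes OCT4 (42 cells, 5 embryos numbered 9, 11, 13, 14 and 18), and HET for Oct4+/- embryos, with a null allele in place of one copy (16 cells, embryos 15 and 16). All embryos, those without OCT4 (MUT) included, came from matings between Pou5f1 heterozygotes on a mixed background, and each was genotyped from its own lysed trophectoderm. The ICMs were freed by immunosurgery, which lyses the outer cells with antiserum and complement, and were taken apart with trypsin. Single cells were picked by pipette into Smart-seq2, a full-length plate-based RNA sequencing method. For comparison, the series holds 29 MUT cells of 4 E3.5 embryos and 66 control cells of 6 E4.5 embryos, which the authors assigned from these transcriptomes to epiblast (EPI, 37 cells) or primitive endoderm (PrE, 29 cells). Of these 6 control E4.5 embryos, 2 were WT and the others HET. The embryo of a cell was taken from the study's sample sheet and is the replicate throughout.

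The ICM is the source of 2 later tissues, the EPI, which founds the fetus, and the PrE, which founds the yolk sac endoderm. Before they separate, ICM cells carry transcripts of factors of both, among them Nanog, a homeodomain factor required for the EPI, and Gata6, a zinc finger factor required for the PrE. FGF4 released by EPI precursors acts through FGFR1 and FGFR2 and the ERK cascade and favours PrE. The trophectoderm, the outer layer that these ICMs were stripped of, is marked by Cdx2, Gata3 and the keratins Krt8 and Krt18.

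Read pairs assigned to genes numbered 363819 to 3689136 per control E3.5 cell (median 1335828), with 7729 to 10771 genes detected (median 9397.5) and 6.26 to 23.6% of counts on mitochondrial genes. A floor of 3 counts corresponded to 0.813 to 8.25 CPM (counts scaled to 1000000 per cell) depending on the cell. Were the cells independent, a gene seen in 0 of 58 cells could still be carried at a countable level by up to 5.17% of cells (95% bound). Cells of an embryo are not independent, so the limit can be looser than this share. That share covers the number of cells only, and cells that carry a gene below their floor are not limited by it. The counts come from amplified reads without molecular identifiers, so the floor covers counting error only. A median of 38.8% of read pairs aligned to more than 1 place and is in no gene count. Levels of genes with near-identical copies are therefore uncertain. No index pair was shared by 2 libraries, no doublet caller was run, and the closest pair of control cells had a Pearson r of 0.89 against a median of 0.84 over all pairs.

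One cell stood apart from the other 57 and is named before the results because several values rest on it. In the cell HET 8 of embryo 15, Nanog, Sox2, Fgf4, Tdgf1 and Klf4 had 0 counts, while it held 1265721 counts and 8285 genes, within the range of the others. Its Pou5f1 level was 67.2 CPM against 117 to 691 CPM elsewhere. Many trophectoderm transcripts were at their highest in it, though Tfap2c (13.4 CPM against 19.5 to 235 CPM) was at its lowest and Hand1 had 0 counts. The trophectoderm list of 16 genes summed to 5922 CPM in this cell against 145 to 1192 CPM (median 465 CPM) in the rest, with 14 members detected against 5 to 12. The keratin Krt18 stood at 1753 CPM against at most 156 CPM, and the GATA factor Gata2 at 151 CPM against at most 6.61 CPM. Among PrE genes, the endocytic adaptor Dab2 (781 CPM against at most 282 CPM) and the receptor Lrp2 (377 CPM against at most 99.4 CPM) were also highest there. Pdgfra, Sox17 and Gata4 had 0 counts in it, and Gata6 (126 CPM) was near the median of the other cells (114 CPM). Of the PrE list, 5 genes were detected in it against 4 to 12 elsewhere. Variance ratios named below that leaving it out moved by over 1.5 times or across a limit are given with and without it.

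The plot of lineage genes shows every control E3.5 cell by embryo.

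**Figure D1:**
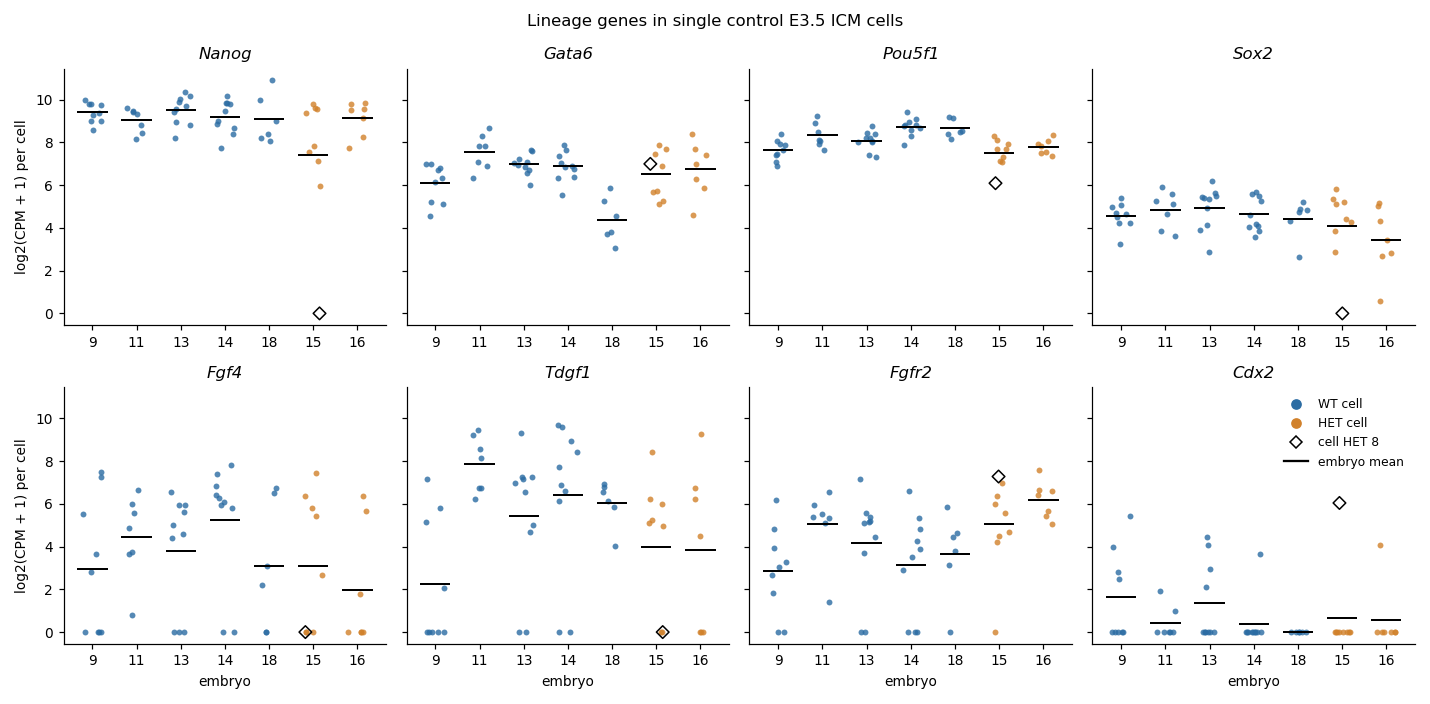
Levels of 8 lineage genes in the 58 control E3.5 ICM cells, as log2(CPM + 1) on the vertical axis, by embryo on the horizontal axis; each point is a cell, blue for WT and orange for HET, the diamond is the cell HET 8 and the bar is the embryo mean. Nanog, Gata6, Pou5f1 and Sox2 were present in nearly every cell, Fgf4, Tdgf1 and Fgfr2 ranged from 0 to 226, 828 and 193 CPM, and Cdx2 had counts in 13 cells.

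Factors of both later lineages were present side by side in almost every cell. Nanog had counts in 57 of 58 cells and Gata6 in all 58, and 56 cells held both at 10 CPM or more. Nanog ranged from 0 through a median of 672 to 1919 CPM over cells, and embryo means averaged 637 ± 126 CPM (SD, n = 7 embryos). Gata6 ranged from 7.41 through 115 to 411 CPM, with embryo means of 119 ± 58.6 CPM (SD, n = 7). Embryo means of Nanog lay between 411 CPM in embryo 15 and 796 CPM in embryo 13. Those of Gata6 reached from 24.9 CPM in embryo 18 to 216 CPM in embryo 11, and no cell of embryo 18 exceeded 57.6 CPM whereas every cell of embryo 11 had at least 80.8 CPM. The cells of these WT embryos therefore did not overlap in Gata6.

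The core pluripotency factors were also present in nearly all cells. Pou5f1 was found in all cells, from 67.2 through 269 to 691 CPM, with embryo means of 302 ± 101 CPM (SD, n = 7). Its embryo means were 194 CPM and 227 CPM in the HET embryos and 208 to 441 CPM in the WT embryos, so the genotypes overlapped. Sox2, the partner of OCT4 on DNA, had counts in 57 cells, from 0 through 24.7 to 71.6 CPM, and embryo means of 26.1 ± 6.46 CPM (SD, n = 7). The pooled SD between cells of an embryo on the log2(CPM + 1) scale was 0.50 for Pou5f1 and 1.15 for Sox2. Of the other 15 genes on the epiblast list, Tfcp2l1, a self-renewal factor downstream of STAT3, averaged 715 CPM with embryo means of 581 to 882 CPM. Zfp42 (REX1) averaged 262 CPM, Dppa3 (STELLA) 1458 CPM and Dppa5a 2299 CPM, each present in all cells. Prdm14, a repressor of FGF signalling genes and of DNA methylation, had counts in 31 cells and Utf1, a chromatin factor gene that OCT4 activates, in 55. Nr0b1 was listed at 0 in all 58 cells. In all, 17 of the 18 epiblast genes were detected in at least 50% of the cells and 9 in every cell.

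PrE factors that act after Gata6 were sparse. Gata4 had counts in 14 cells, Sox17 in 7 cells and Sox7 in 1 cell, and Foxa2 was listed at 0 throughout. Pdgfra, a receptor that marks PrE precursors, was detected in 33 cells, with embryo means of 19.8 ± 20.0 CPM (SD, n = 7). Basement membrane genes were more widespread, with Col4a1 in 52 cells, Lamc1 in 53 and Sparc in 34. Of the 16 genes on the PrE list, 8 were detected in at least 50% of the cells and Gata6 alone in all of them.

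Trophectoderm transcripts were found in these immunosurgery-isolated ICM cells to unequal degrees. Tfap2c and Krt8 were detected in all 58 cells, Tead4 in 54, Eomes in 50 and Krt18 in 48, whereas Krt19 was listed at 0. Cdx2 had counts in 13 cells of 6 embryos and in 0 of 6 cells of embryo 18. These 13 cells held 1 to 82 Cdx2 read pairs. The most were in HET 8 (64.8 CPM), followed by a WT cell of embryo 9 with 42.2 CPM, and 6 cells besides HET 8 had more than 10 CPM. The 12 Cdx2-positive cells other than HET 8 all carried Nanog, at 214 to 1318 CPM, so counts of Cdx2 and Nanog were not exclusive. Eomes embryo means ran from 3.06 to 88.0 CPM. Of the 16 listed trophectoderm genes, 9 were detected in at least 50% of the cells.

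The FGF ligand and receptor genes Fgf4 and Fgfr2 left more cells without counts than Nanog, Gata6, Pou5f1 and Sox2 did. Fgf4 was detected in 39 of 58 cells, from 0 through a median of 21.7 to 226 CPM, with embryo means of 41.9 ± 20.6 CPM (SD, n = 7). Counts were present in all 7 cells of embryo 11, in 8 of 10 in embryo 14, 7 of 10 in embryo 13, 5 of 9 in embryos 9 and 15, 4 of 6 in embryo 18 and 3 of 7 in embryo 16. Cells with Fgf4 at 0 thus occurred beside cells with over 80 CPM in 6 of 7 embryos. The receptor gene Fgfr2 had counts in 49 cells, from 0 through 27.1 to 193 CPM, with embryo means of 40.4 ± 25.2 CPM (SD, n = 7) that were highest in HET embryo 16 (85.2 CPM) and lowest in WT embryo 9 (15.2 CPM). Fgfr1, the other receptor of FGF4 in the ICM, was present in all cells at 106 ± 35.2 CPM (SD over 7 embryo means). Fgfr3 and Fgfr4 had counts in 3 and 13 cells. Of the other ligands, Fgf10 was found in 53 cells and Fgf3 in 14, and Fgf5 and Fgf8 were listed at 0. Among genes that respond to ERK, the feedback inhibitor Spry2 was present in all cells (273 ± 45.7 CPM, SD over 7 embryos) and the ETS factor Etv5 in 54, while Spry4 was found in 39, Dusp6 in 29 and Etv4 in 0 cells.

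Tdgf1, which encodes the Nodal coreceptor CRIPTO, had a pattern across cells close to that of Fgf4. It was detected in 43 cells, from 0 through 70.9 to 828 CPM, and embryo means averaged 148 ± 115 CPM (SD, n = 7), from 26.2 CPM in embryo 9 to 321 CPM in embryo 11. All 7 cells of embryo 11 and all 6 of embryo 18 carried it, against 4 of 9 in embryo 9. The ligand Nodal itself and its target Lefty2 were listed at 0 in all cells, and Lefty1 had counts in 3. Gdf3, a TGF-beta family ligand, was detected in 56 cells and the signal transducer Smad2 in 55. In the LIF pathway, which feeds STAT3, Stat3 was found in all cells (97.4 ± 16.05 CPM, SD over 7 embryos), the receptor subunits Il6st and Lifr in 40 and 18, and the feedback inhibitor Socs3 in 52.

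Which genes differed between cells of an embryo by more than their level and depth would give was read from the within-embryo variance of log2(CPM + 1), divided by a smooth trend of variance against mean over 8685 genes with a mean of at least 5 CPM. A ratio of 1 is thus the typical variance at that level, and genes at a ratio of 2 or more are called variable here. By this measure 582 of 8685 genes (6.7%) were variable, and 572 of 8686 without HET 8, of which 540 were shared. The values just outside the limit were those of Far1, Ly96 and Npm1 (1.997 to 1.999) and those just inside Cab39l, Naa15 and Fbxo21 (2.0004 to 2.002). All 582 had a mean of 20 CPM or more. Poisson counting accounted for a median of 1.85% of the within-embryo variance of unlogged CPM of the variable genes, against 4.801% over all genes. Of the within-embryo variance of log2(CPM + 1), log2 total counts accounted for 2.75% against 1.37%. Variable genes lay above the trend in at least 5 of 7 embryos in 542 cases (93.1%), compared with 3095 (35.6%) of all genes. The same embryos chose these genes, so this count is a description only.

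**Figure D2:**
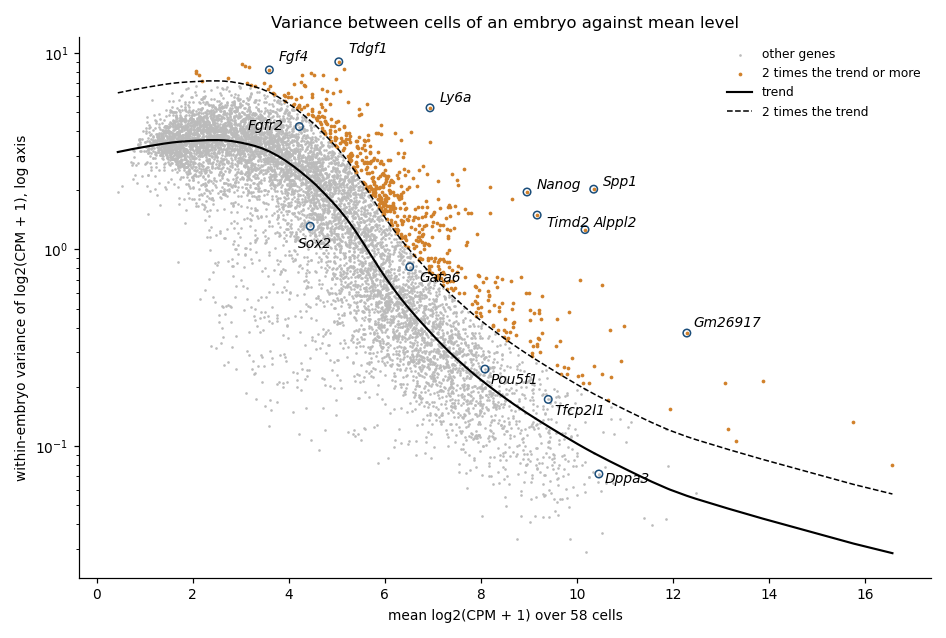
Within-embryo variance of log2(CPM + 1), on a log axis, against mean log2(CPM + 1) over the 58 control E3.5 cells; each point is 1 of 8685 genes, orange at 2 times the trend or more, with the trend as a solid line and 2 times the trend as a dashed line. Nanog, Spp1, Ly6a, Alppl2 and Timd2 stood well above the dashed line, whereas Pou5f1, Dppa3 and Sox2 lay near or under the trend.

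Of the 6 marker genes, Nanog and Fgf4 were variable and Pou5f1, Sox2, Gata6 and Fgfr2 were not. Nanog reached a ratio of 13.3, which fell to 5.49 without HET 8, the cell at 0. Fgf4 had a ratio of 2.60 (2.66 without HET 8). Gata6 stood at 1.65, Fgfr2 at 1.68 and Pou5f1 at 1.18, and Sox2 was less variable than genes of its level usually are, at 0.581. Tdgf1 (5.61, and 5.98 without HET 8), Fgf10 (4.18), Etv5 (2.61) and Socs3 (2.60) were variable with or without HET 8. Among signalling genes those below the limit included Fgfr1 (1.44), Spry2 (1.45), Stat3 (0.873) and Spry4 (0.683).

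By list, signalling and cell cycle genes held most of the variable members, to be read against 6.7% of all genes. All 582 variable genes had a mean of at least 20 CPM, a level that 5697 genes reached. The shares of the epiblast (11.8%), PrE (10%) and LIF/STAT3 (12.5%) lists given below were near that of these 5697 genes. In the FGF ligand and receptor list 2 of 4 genes in the trend were variable (Fgf4 and Fgf10), in the list of FGF/ERK targets 2 of 9 (Etv5 and the immediate early gene Fos, the latter at 1.83 without HET 8), and in the Nodal list 3 of 8 (Tdgf1, Gdf3 and Smad2, the last just under the limit without HET 8). Of the LIF/STAT3 list, Socs3 alone of 8 was variable, and of the Hippo list 0 of 9. The epiblast list had 2 of 17 (Nanog, and Tbx3 at 2.08, which stood at 1.46 without HET 8). The PrE list had 1 of 10 (Dab2, 2.17, and 1.97 without HET 8) and the trophectoderm list 2 of 10 (Krt8, 2.39, and Cldn4, 2.05, the latter at 1.93 without HET 8). Median ratios were 1.29 for the epiblast list, 1.14 for the PrE list, 1.33 for the trophectoderm list and 2.14 for the FGF ligands and receptors, against 1.00 over all genes.

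Genes of the cell cycle were present in nearly all cells, and a minority of them were variable. Of the 23 G1/S genes in the trend 5 were variable, led by the chromatin remodeller Hells (5.28) and by Uhrf1 (4.43, and 2.43 without HET 8), which maintains DNA methylation at replication, with Rrm2 (3.00), Mcm3 and Ccne1. Of the 24 G2/M genes 8 were variable (9 without HET 8), led by the spindle checkpoint kinase gene Bub1 (3.92) and by Top2a (3.23), with Ttk, Kif11, Hmmr, Ndc80, Cdk1 and Cenpf. Birc5 (survivin) was the most even of them, at 0.351. The summed G1/S level ran from 2373 to 5465 CPM over cells and the G2/M sum from 3481 to 6875 CPM, and the sums had a within-embryo r of -0.01 over the 58 cells. Of the p53 list 1 of 9 genes was variable (Ccng1, 2.24) and of the immediate early genes that dissociation can induce 1 of 7 (Fos). Housekeeping genes (0 of 8), and Y-linked genes and Xist (0 of 4), had none. Of 13 genes of the 2-cell stage, 4 had any counts, each in at most 3 cells.

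The 20 genes furthest above the trend had ratios of 6.402 to 21.98, and Nanog, described above, was the third of them. Spp1, which encodes the secreted phosphoprotein osteopontin, had the highest ratio, 21.98 (13.2 without HET 8), with 12.6 through 1692 to 4577 CPM over cells and embryo means of 657 to 2872 CPM. Ly6a, a small membrane-anchored surface protein, followed with 13.8, from 0 through 167 to 1412 CPM, and its SD between cells ranged from 1.02 to 3.48 over embryos. The surface alkaline phosphatase gene Alppl2 (12.9, 84.0 to 4298 CPM) and Timd2, a surface receptor that takes up ferritin (10.97, 69.5 to 3226 CPM), had counts in every cell. These 4 stood above 10 with or without HET 8. Further members of the 20 were the TIM family receptor gene Havcr1 (8.12), the class I histocompatibility gene H2-D1 (8.26), the heparan sulphate carrier gene Sdc4 (6.47), the polyamine acetylase gene Sat1 (7.51), the RNA methylation cofactor gene Wtap (6.93) and the PRAME family genes Pramel5 (7.78) and Pramel7 (7.65). For several genes the rank rested on HET 8. The ETS factor gene Spic went from 10.9 to 3.46 without HET 8, the glutaredoxin gene Glrx from 10.4 to 4.31 and the ubiquitin ligase gene Fbxl20 from 6.402 to 2.15, and each was at 0 in 1 cell. The uridine phosphorylase gene Upp1 went from 9.98 to 5.85 and the gap junction gene Gjb5 from 8.13 to 5.19. The remaining members were Zfp820 (9.25), Gm26917 (6.73) and Nabp1 (6.43). Without HET 8, 15 of these 20 stayed among the first 20.

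Part of this variation recurred in both genotypes. Among the 42 WT cells 612 of 8634 genes were variable, and among the 15 HET cells other than HET 8, 815 of 8673 (9.40%). Of the 612, 310 (50.7%) were also variable in the HET cells. The ratio of Nanog was 4.13 in WT and 8.69 in HET cells without HET 8, that of Spp1 15.1 and 7.06, that of Ly6a 15.3 and 13.6, and that of Timd2 8.84 and 15.7. Fgf4 (3.17 and 2.09), Tdgf1 (8.23 and 3.64), Fgf10 (4.23 and 6.402) and Etv5 (2.75 and 2.59) were likewise variable in both.

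HET and WT embryos were also compared by level. With counts summed per embryo, edgeR's quasi-likelihood test called 0 of 13351 genes at a Benjamini-Hochberg adjusted p under 0.05 in either direction (0%), with a smallest adjusted p of 0.395 and 1037 genes at an unadjusted p under 0.05. With DESeq2 the number was 178, of which 46 had a higher and 132 a lower level in HET embryos. Pou5f1 was lower in HET by edgeR's estimate (log2 fold change -0.65 ± 0.28 SE, 2 HET against 5 WT embryos, adjusted p = 0.643 by edgeR). A panel of 24 lineage and signalling genes spanned log2 fold changes of -1.59 to 3.05, and 4 of them had an unadjusted p under 0.05.

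Whether cells with more of one factor had less of another was described by Pearson's r of log2(CPM + 1) after centring within embryos. Cells of an embryo share their embryo and its dissociation, so r is given without a p. Nanog and Gata6 had no linear relation across the 58 cells (r = 0.00, and 0.10 without HET 8), and the sign differed between embryos, from -0.59 in embryo 16 to 0.60 in embryo 9. Nanog and Fgfr2 ran against each other (r = -0.43, and -0.50 without HET 8), with a negative r in 6 of 7 embryos. Nanog and Fgf4 were weakly positive (r = 0.28, and 0.25 without HET 8) in 6 of 7 embryos, embryo 16 being the exception at -0.67. Fgf4 and Fgfr2 were inversely related over all cells (r = -0.35, and -0.33 without HET 8), but negative in 4 embryos and positive in 3. The relations of Gata6 with Fgf4 (r = 0.15) and with Fgfr2 (r = -0.05) were weak, and the former turned to -0.10 in the WT cells alone.

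Fgf4 and Tdgf1 were closely related. Their r was 0.70 with and without HET 8 and lay between 0.60 and 0.92 in 6 embryos. Embryo 18 was the exception (r = -0.64 over 6 cells). In counts, 36 cells carried both genes, 3 Fgf4 alone, 7 Tdgf1 alone and 12 neither. The 15 cells with Tdgf1 at 0 came from 5 embryos, and in 12 of them Fgf4 was at 0 too, the highest Fgf4 level among the remaining being 11.6 CPM. All 15 carried Fgfr2. The 9 cells with Fgfr2 at 0 likewise came from 5 embryos, and all carried Nanog (515 to 1919 CPM) and Tdgf1 (34.9 to 779.8 CPM), and 8 carried Fgf4 (median 92.2 CPM over the 9). Their totals ran from 363819 to 2258064 counts and included the shallowest control cell. In the other direction, 18 of the 19 cells with Fgf4 at 0 carried Fgfr2, yet 31 of 58 cells held counts of both Fgf4 and Fgfr2, and 21 held both at 10 CPM or more. With Fgf4 detected in 39 and Fgfr2 in 49 of the 58 cells, these counts of the pair are near those that unrelated detection would give. A departure from such counts was not tested.

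**Figure D3:**
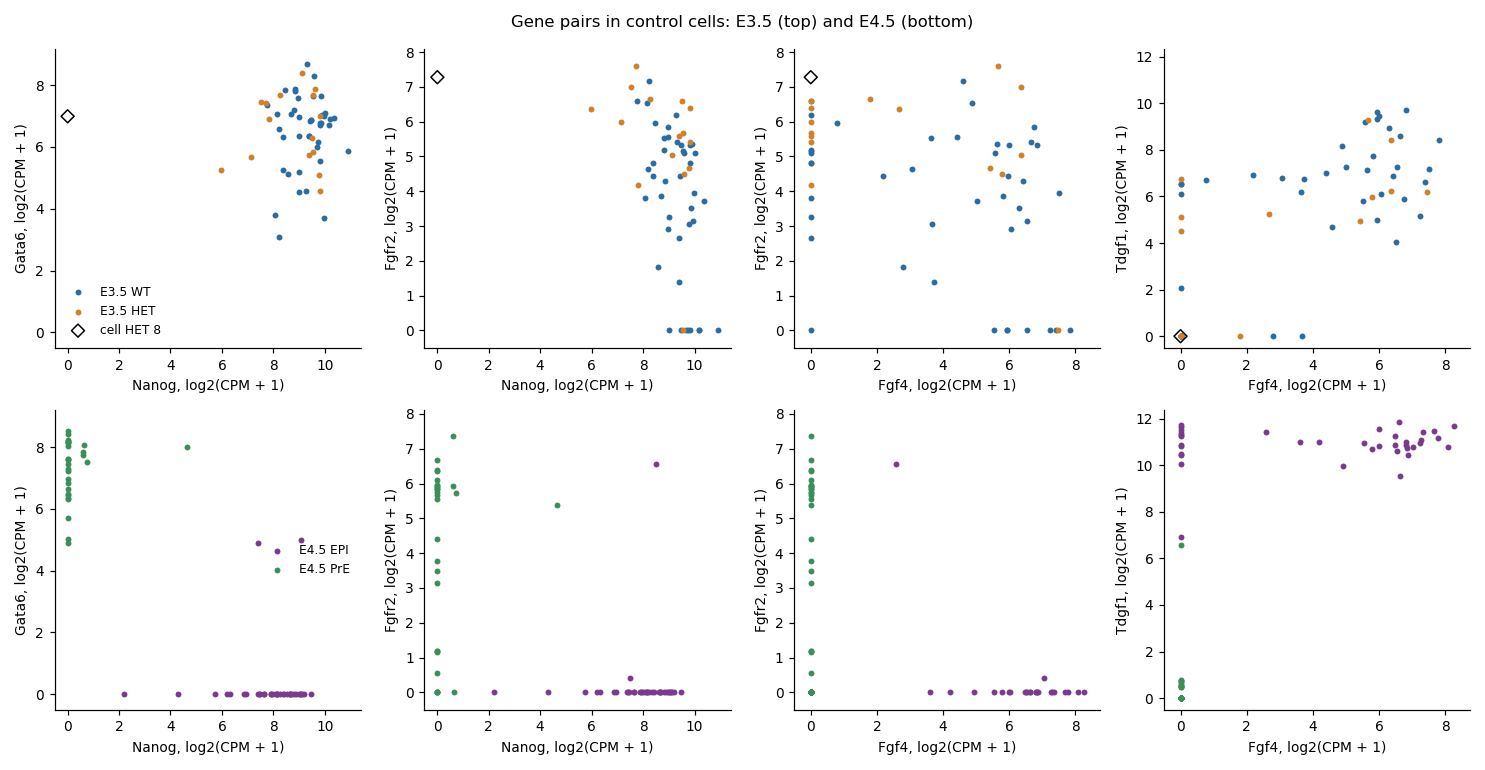
Levels of gene pairs in single control cells as log2(CPM + 1) on both axes, with the 58 E3.5 cells in the upper row (WT blue, HET orange, HET 8 as a diamond) and the 66 E4.5 cells in the lower row (EPI purple, PrE green). At E3.5 Nanog and Gata6 occurred together in 57 cells, and Fgf4 and Tdgf1 rose together, while at E4.5 Nanog and Gata6 lay along opposite axes.

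**Figure D4:**
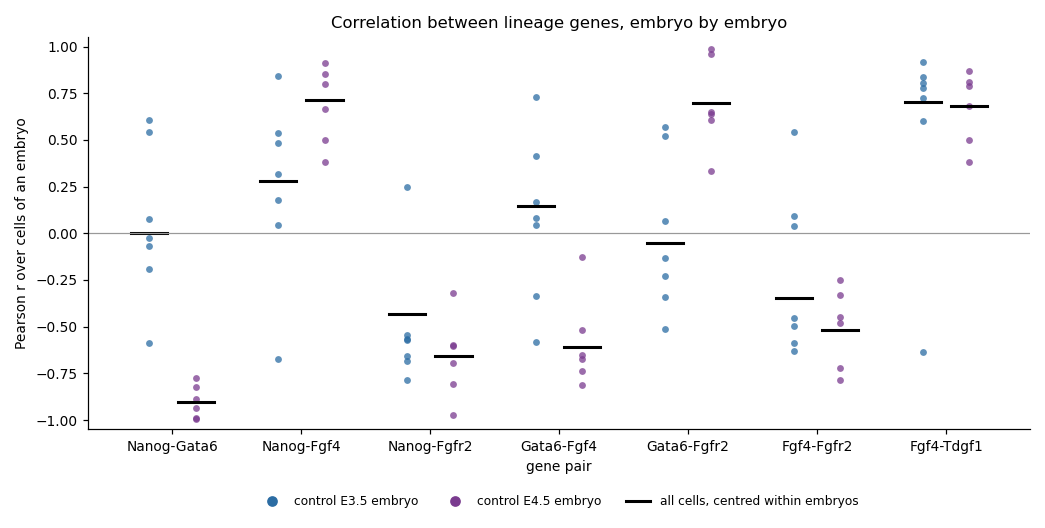
Pearson r of log2(CPM + 1) over the cells of each embryo for 7 gene pairs on the horizontal axis, with 1 point per control E3.5 embryo (blue, 7) or control E4.5 embryo (purple, 6) and a bar for all cells centred within embryos. Nanog-Gata6 r scattered from -0.59 to 0.60 at E3.5 and from -0.99 to -0.78 at E4.5, whereas Fgf4-Tdgf1 was positive in 6 of 7 E3.5 embryos and in all E4.5 embryos.

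The windows around the RefSeq start sites of these covarying genes are shown so that the sequences behind Nanog, Fgf4, Tdgf1 and Fgfr2 can be read beside their values. Each runs 5′ to 3′ on the gene's strand from 250 bases before to 50 bases after a RefSeq start (GRCm38.p6). Capitals mark matches to ATGCAAA, a core of the octamer that OCT4 binds, and to ACAATG, a core bound by SOX factors, on either strand.
Nanog, chr6:122707239-122707538, plus strand: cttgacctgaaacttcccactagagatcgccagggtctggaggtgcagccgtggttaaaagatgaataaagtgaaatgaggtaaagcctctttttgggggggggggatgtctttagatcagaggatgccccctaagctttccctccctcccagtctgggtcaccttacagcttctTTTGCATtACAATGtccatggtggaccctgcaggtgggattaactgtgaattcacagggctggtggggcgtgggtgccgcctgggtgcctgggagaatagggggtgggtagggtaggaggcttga
Fgf4, chr7:144861136-144861435, plus strand: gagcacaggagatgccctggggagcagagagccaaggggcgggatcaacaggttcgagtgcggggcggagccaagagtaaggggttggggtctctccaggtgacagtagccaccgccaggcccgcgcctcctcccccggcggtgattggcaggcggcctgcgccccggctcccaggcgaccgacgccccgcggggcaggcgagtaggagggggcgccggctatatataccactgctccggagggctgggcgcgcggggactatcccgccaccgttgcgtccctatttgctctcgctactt
Tdgf1, chr9:110946109-110946408, minus strand: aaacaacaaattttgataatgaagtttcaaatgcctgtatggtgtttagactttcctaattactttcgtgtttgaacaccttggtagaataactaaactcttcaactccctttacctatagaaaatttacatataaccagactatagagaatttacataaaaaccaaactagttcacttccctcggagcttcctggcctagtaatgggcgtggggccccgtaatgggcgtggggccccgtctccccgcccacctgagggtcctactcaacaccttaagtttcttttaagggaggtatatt
Fgfr2, chr7:130266759-130267058, minus strand: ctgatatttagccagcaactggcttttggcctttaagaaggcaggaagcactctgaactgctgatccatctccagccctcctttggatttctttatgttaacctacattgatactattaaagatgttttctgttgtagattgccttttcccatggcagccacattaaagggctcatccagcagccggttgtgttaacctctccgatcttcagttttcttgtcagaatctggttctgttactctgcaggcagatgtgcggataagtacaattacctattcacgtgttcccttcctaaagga
The Nanog window held the octamer core, read on the minus strand, with its first base at -75, and the SOX core at -67, without overlap. Counted from another RefSeq start of Nanog, the same matches lie at -151 and -143. The window of Cdx2, not shown, held ATGCAAA at -147. The windows of Fgf4, Tdgf1 and Fgfr2 held neither string. Over 32851 RefSeq windows of this length, ATGCAAA was found in 4.63% and ACAATG in 12.6%. A match or its absence says only which letters lie in the window.

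Among all genes with a mean of at least 20 CPM and counts in at least 50% of the cells (5690 genes), few followed the lineage factors. An r of at least 0.5 in size was reached by 88 genes with Nanog, and by 7 without HET 8. With Gata6 there were 8 (7 without HET 8), with Fgf4 21 (23), with Fgfr2 3 (3) and with Cdx2 12 (4). The high number for Nanog therefore rested on HET 8, the cell without Nanog counts, and for Fgf4 it did not. For Fgf4, r fell between -0.31 and 0.35 for 95% of these genes, which sets the scale for the values that follow.

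The genes most like Fgf4, by r with the same sign in at least 6 of 7 embryos, were Tdgf1 (0.70), the chromatin cofactor gene Arid5b (0.56), the cytokine signalling inhibitor gene Socs2 (0.56), the kinase gene Sik1 (0.56) and the phosphatase inhibitor gene Ppp1r14d (0.54). Without HET 8 the DNA demethylase gene Tet1 and Upp1 (0.57 each) entered. Those most opposed to Fgf4 were the folate receptor gene Folr1 (-0.58), Uap1 (-0.55), an enzyme of sugar nucleotide synthesis, the lamin-processing protease gene Zmpste24 (-0.54), the ferritin receptor gene Timd2 (-0.53) and Spryd7 (-0.53), and the same 5 stood there without HET 8. The later behaviour of these genes was read from the control E4.5 embryos, where edgeR called 460 of 9762 genes higher in EPI than PrE (4.71%) and 523 lower (5.36%). The lineages were assigned from these same transcriptomes, so the p-values of this comparison are no independent test of it. Tdgf1 (log2 fold change 8.12) and Socs2 (1.22, adjusted p = 0.0051 by edgeR) were called higher in EPI. Timd2 (-12.57, with 21714 counts in the 29 PrE cells and 4 counts in the 37 EPI cells), Uap1 (-2.20, adjusted p = 0.0223 by edgeR) and Spryd7 (-1.62, adjusted p = 0.0294 by edgeR) were called higher in PrE. Uap1 was not called with embryo as a block (adjusted p = 0.0732 by edgeR) or without embryo 4, 5 or 6 (0.0604 to 0.0924 by edgeR), nor Spryd7 without embryo 2, 5, 6 or 7 (0.0752 to 0.127 by edgeR). Zmpste24 (-0.87, adjusted p = 0.507 by edgeR) and Folr1 (-0.33, adjusted p = 0.516 by edgeR) were not called. Timd2, present in every control E3.5 cell, was thus among the most variable genes, was opposed to Fgf4 and was later found in all 29 PrE cells and in 3 of 37 EPI cells.

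Members of the lists leaned with Fgf4 in a graded way. Without HET 8, 16 of 17 epiblast genes had a positive r with Fgf4 (median 0.21, against 0.01 over 8177 genes, of which 4359 were positive), from Dppa3 at -0.13 to the germ line gene Morc1 at 0.56. All 8 FGF/ERK targets were positive (median 0.11), with Etv5 highest at 0.51, and the STAT3 target Socs3 stood at 0.46. Of 9 trophectoderm genes 3 were positive (median -0.18). Toward Fgfr2 the epiblast genes leaned the other way, with 14 of 17 negative (median -0.19), and the PrE list was positive in 6 of 8 (median 0.28), with Pdgfra at 0.41, against 4225 of all 8177 genes. Gata6 was positive with 15 of 17 epiblast genes (median 0.17), highest with Pou5f1 (0.48), and with 4 of 7 PrE genes (median 0.22), from Dab2 at -0.28 to Col4a1 at 0.44, against 4533 of all 8177 genes (median 0.03). The share of the PrE genes was thus near that of all genes. Nanog was positive with 12 of 16 epiblast genes (median 0.06), and with 14 of 16 (median 0.28) when HET 8 was included, against 4428 and 4278 of all 8177 genes. The genes higher in EPI at E4.5 that were among the 5690 (316 for Fgf4 and 317 for Fgfr2) were read over all 58 cells, HET 8 included. Their median r with Fgf4 at E3.5 was 0.08, with 65.2% positive against 53.02% of all genes. With Fgfr2 it was -0.06, with 37.9% positive against 49.7%. Of the 358 genes higher in PrE, read over the same 58 cells, 51.1% were positive with Fgf4 (median 0.00) and 47.8% with Fgfr2 (median -0.01), near the shares of all genes. These leanings were small beside the spread of r over genes.

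The other anchors had looser company. For Nanog without HET 8 the highest r were those of the pseudogene Gm10093 (0.57), Psap (0.54), the 14-3-3 protein gene Sfn (0.51), Dppa5a (0.50) and Pdpn (0.50), and the lowest those of the tight junction gene Cldn12 (-0.52), Fgfr2 (-0.50), Zfp534 (-0.50), Phf20l1 (-0.48) and the aldose reductase gene Akr1b3 (-0.48). With HET 8 the first place went to Spic (0.80, and 0.42 without it). For Gata6 over all 58 cells the highest r were those of the translation factor gene Eif3b (0.52), Rrp1b (0.51), Net1 (0.51), the pseudogene Rpl10-ps3 (0.51) and Incenp (0.50). At the other end stood the chaperonin gene Cct4 (-0.49), Sarnp (-0.49), Mcur1 (-0.48), Tsc1 (-0.48) and Tpp2 (-0.46). Gata6 itself had an r of -0.31 with log2 total counts and of -0.32 with the mitochondrial share, and the part of depth in its relations was not tested gene by gene. For Fgfr2 over all 58 cells the highest r were those of Ccdc50 (0.52), Rrp8 (0.51), Ythdf1 (0.47), Unc119b (0.46) and Sdc4 (0.46). The lowest were those of the sterol synthesis gene Msmo1 (-0.50), Trim43a (-0.49), the autophagy receptor gene Sqstm1 (-0.47), Dis3 (-0.45) and Nanog (-0.43). For Cdx2, 3 embryos had counts in enough cells to compare signs, and the lowest r, that of Rnf130 (-0.68), was -0.54 without HET 8. The Nanog-Cdx2 r of -0.43 was -0.07 without HET 8.

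On the log2(CPM + 1) scale, most genes had a smaller spread between cells of a control E3.5 ICM than between cells of a control E4.5 ICM. The SD of log2(CPM + 1) over the cells of an embryo was compared between 7 E3.5 and 6 E4.5 embryos by an exact two-sided permutation test over all 1716 splits, adjusted over 9319 genes. Of these, 6201 genes had a smaller spread at E3.5 (66.5%) and 189 a larger one (2.03%), with a median difference of -0.83. Of the 24 panel genes 18 were smaller and 1, Cdx2, was larger, so the panel was near the share of all genes. These SDs are not adjusted for level, levels differ between the stages, and the part of level in the difference was not tested. E3.5 cells had 9397.5 and E4.5 cells 6998.5 genes detected at the median. With every cell thinned to 363819 counts, 5725 of 9312 genes (61.5%) had a smaller spread at E3.5. Stage coincides with the plate named in the deposited files, and the 2 cannot be told apart. Genotype also differed between the stages, with 5 of 7 embryos WT at E3.5 and 2 of 6 at E4.5.

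Most of the lineage factors followed this order, as did 66.5% of all genes. The SD of Gata6 was 0.90 ± 0.26 (SD over 7 embryos) at E3.5 and 3.73 ± 0.32 (6 embryos) at E4.5, without overlap (exact permutation p = 0.000583, the smallest this design gives, adjusted 0.00284). For Nanog it was 1.07 ± 0.91 against 3.96 ± 0.36 (exact permutation p = 0.00117, adjusted 0.00389), the highest E3.5 value, 3.09, being that of embryo 15 with HET 8. Tfcp2l1 went from 0.42 to 3.42, Dppa3 from 0.27 to 1.73, Sox2 from 1.08 to 2.59 and Pou5f1 from 0.48 to 2.06, each without overlap and with an adjusted exact permutation p of 0.00284. Mean levels of Tfcp2l1, Dppa3 and Pou5f1 were lower in both E4.5 lineages than at E3.5, and that of Sox2 was higher in EPI and lower in PrE. The r of Nanog and Gata6 averaged 0.05 ± 0.42 at E3.5 and -0.90 ± 0.09 at E4.5, also without overlap (exact permutation p = 0.00117). Fgf4 was the exception among the markers, since its spread was already 2.82 ± 0.41 at E3.5 against 3.24 ± 0.49 at E4.5 (exact permutation p = 0.131, adjusted 0.164), a difference of -0.42. That status rested on a single E4.5 embryo, without which Fgf4 passed the test, as given under processing. Fgfr2 (1.93 ± 0.53 against 2.62 ± 0.38, exact permutation adjusted p = 0.0272) and Tdgf1 (2.72 ± 1.10 against 5.14 ± 0.78, exact permutation adjusted p = 0.00492) had a smaller spread at E3.5 although their embryos overlapped. The call of Fgfr2 was lost at a pseudocount of 10 CPM and when any of several E4.5 embryos was left out. Utf1, Gata3, Krt18 and Id2 did not pass the test. The larger spread of Cdx2 (1.34 against 0.22, exact permutation adjusted p = 0.0343) had an adjusted exact permutation p of 0.0983 without HET 8. At E4.5 Cdx2 had counts in 0 of 37 EPI and 1 of 29 PrE cells, so its small spread there reflects near absence of counts.

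**Figure D5:**
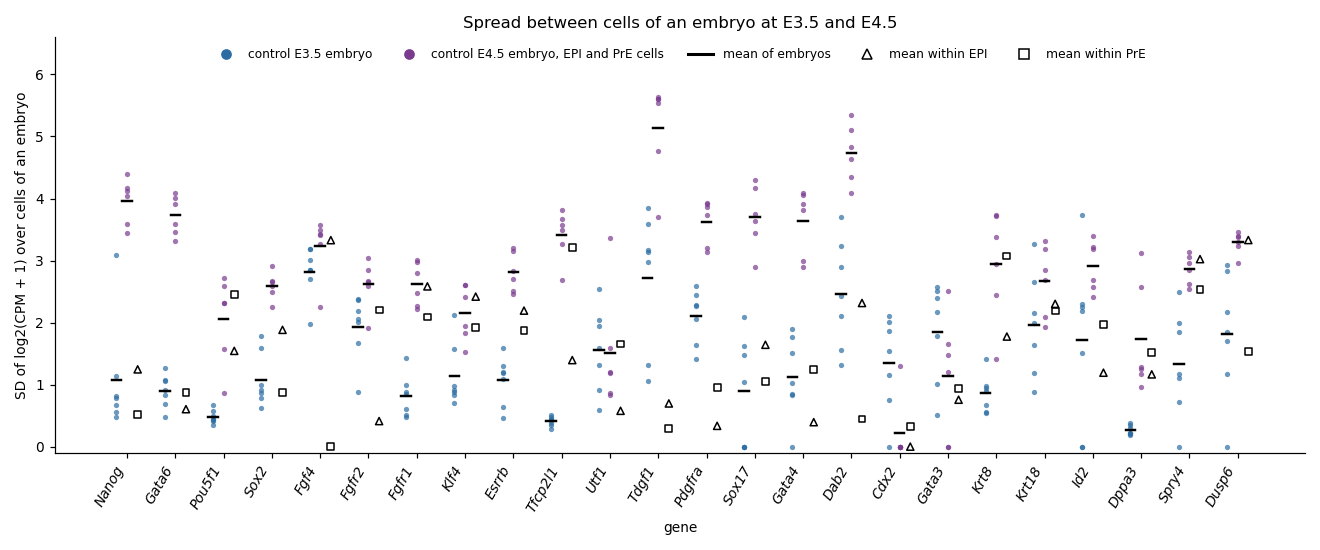
SD of log2(CPM + 1) over the cells of an embryo (vertical axis) for the 24 panel genes (horizontal axis), with 1 point per control embryo at E3.5 (blue, 7) and E4.5 (purple, 6, EPI and PrE cells together), bars for means, and triangles and squares for the mean SD within EPI and within PrE cells of an E4.5 embryo. Nanog, Gata6 and Tfcp2l1 stood apart between stages, whereas Fgf4 and Utf1 overlapped.

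Part of the E4.5 spread lies between EPI and PrE. The SD within a lineage of an E4.5 embryo is described without a test, because the lineages were assigned from these transcriptomes. For Gata6 it averaged 0.87 among PrE cells, near the 0.90 of E3.5 cells. For Nanog it averaged 1.25 among EPI cells (0.53 to 2.56 over embryos), against 1.07 at E3.5. That E3.5 mean of Nanog rested in part on embryo 15 (SD 3.09), which holds a cell without Nanog counts. The other E3.5 embryos had a Nanog SD of 0.47 to 1.13, so closeness of the stages in Nanog cannot be read from the means. Tdgf1 averaged 0.70 within EPI against 2.72 at E3.5, and Utf1 0.58 against 1.56. Both genes had higher levels in EPI (Tdgf1 1978 against 148 CPM at E3.5, Utf1 502 against 54.5 CPM). These SDs are not adjusted for level, and the part of level in the difference was not tested. Fgf4, by contrast, averaged 3.33 within EPI, and Pou5f1 1.54. Over all genes the median SD was 1.15 in E3.5 embryos, 2.01 within EPI and 1.94 within PrE.

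Levels of the same genes in the later lineages are given beside those of E3.5. Nanog averaged 637 CPM in control E3.5 ICM, 304 CPM in EPI and was detected in 5 of 29 PrE cells, and its level was higher in EPI than PrE by 7.90 on the log2 scale by edgeR. Gata6 averaged 119 CPM at E3.5 and 186 CPM in PrE. Tdgf1 went from 148 CPM at E3.5 to 1978 CPM in EPI. Fgf4 averaged 41.9 CPM at E3.5 (39 of 58 cells) and 77.1 CPM in EPI (25 of 37 cells), and was at 0 in all 29 PrE cells. Fgfr2 was detected in 49 of 58 E3.5 cells, 24 of 29 PrE and 2 of 37 EPI cells, and the EPI to PrE difference did not pass edgeR's test (log2 fold change -4.37, adjusted p = 0.0935 by edgeR). It was called with embryo as a block (log2 fold change -9.01, adjusted p = 0.0185 by edgeR), with DESeq2 (adjusted p = 0.0106) and without embryo 5 (adjusted p = 0.000117 by edgeR).

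Variability at E3.5 and lineage difference at E4.5 met in a minority of genes. Of 558 variable genes tested at E4.5, 92 (16.5%) were called between EPI and PrE, 45 higher in EPI and 47 in PrE, against 583 of 5036 (11.6%) of the other genes with a mean of at least 20 CPM. Read the other way, 45 of 373 EPI genes (12.1%) and 47 of 427 PrE genes (11.01%) were variable at E3.5. Of all 8080 genes in both comparisons, 558 (6.91%) were variable. That share includes genes with a mean under 20 CPM, none of which was variable, so the share at 20 CPM or more is higher. Of the 20 most variable genes, 18 were tested. Their calls are to be read against 4.71% of all 9762 genes called higher in EPI and 5.36% in PrE. Nanog, Spic (12 of 37 EPI cells and 0 of 29 PrE cells), Spp1 and Upp1 were called higher in EPI, and Timd2 (-12.57), Sdc4 (-2.85) and Nabp1 (-2.25) higher in PrE on the log2 scale. The call of Spp1 (adjusted p = 0.0365 by edgeR) was lost without embryo 1, 2, 4, 5 or 7 (0.0613 to 0.127 by edgeR) and with no filter on low counts (0.119 by edgeR), and that of Nabp1 without embryo 4, 5, 6 or 7 (0.0521 to 0.0731 by edgeR). With embryo as a block Spic was not called (adjusted p = 0.0604 by edgeR).

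The spread was also set against that of the MUT ICMs of the same stage and named plate, which lack OCT4. Over 8676 genes an exact two-sided permutation test over 330 splits of 7 and 4 embryos called 0 genes (0%) after adjustment, where the smallest p the design gives is 0.00303. The smallest adjusted p was 0.185, and 1023 genes had an unadjusted exact permutation p under 0.05. Fgf4 varied among control cells with an SD of 2.82 ± 0.41 and among MUT cells with 1.32 ± 0.97 (exact permutation p = 0.00606, adjusted 0.218). Fgfr2 (1.93 against 0.85, exact permutation p = 0.0152) and Tdgf1 (2.72 against 0.69, exact permutation p = 0.0273) stood in the same order, and none of the 3 passed the adjustment. Fgf4 was detected in 39 of 58 control and 8 of 29 MUT cells, Tdgf1 in 43 and 7, and Fgfr2 in 49 and 29 of them. Mean levels in control and MUT cells were 41.9 and 3.44 CPM for Fgf4, 148 and 0.836 CPM for Tdgf1, and 40.4 and 92.4 CPM for Fgfr2. The SDs are not adjusted for level, and the part of level in these differences was not tested. The spread of Nanog (1.07 against 1.24, exact permutation p = 0.83) and the mean r of Nanog and Gata6 (0.05 against 0.00, exact permutation p = 0.861) overlapped between genotypes. The smallest p, with no overlap, was that of Pou5f1 (0.48 against 1.35, adjusted exact permutation p = 0.185), whose mean level was 302 CPM in control and 3.42 CPM in MUT cells.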

How the data were processed

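Raw read counts per gene and cell were used as deposited. Per the labels and the study's methods, the authors filtered cells by quality, aligned their 125-bp Smart-seq2 read pairs with STAR (GRCm38, mm10) and counted them with htseq-count over the genes of Ensembl 87. No normalization was applied to the deposited counts. Of 49671 genes, 49326 have a symbol. Genotype and stage are from the labels and embryos from the study's sample sheet. The members and the 15 gene lists were chosen with earlier results of these data known.

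CPM are counts scaled to 1000000 gene counts per cell, without the rows for unassigned pairs (median 5.16% outside genes, 6.33% in more than 1 gene). Values are log2(CPM + 1), centred within embryos for variance and correlation. The variance trend is a lowess curve (fraction 0.2) over genes with a mean of at least 5 CPM. Named genes are the markers, list members, the 20 largest variance ratios with a mean of at least 20 CPM, and, for Nanog, Gata6, Fgf4, Fgfr2 and Cdx2, the 5 highest and 5 lowest r (mean of at least 20 CPM, counts in at least 50% of cells, same sign in 6 of 7 embryos; for Cdx2, embryos with counts in at least 2 cells). Genes named for being at 0 or just beside a limit, and the pairs with Tdgf1, Etv5, Pdgfra and Dab2, were chosen after their values were seen. Some list members are not reported here.

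Spread was compared by exact two-sided permutation over embryos, levels by the quasi-likelihood test of edgeR 4.0.16 (limma 3.58.1, R 4.3.3) on counts summed per embryo, with filterByExpr and trimmed mean of M values (TMM). P was adjusted by Benjamini-Hochberg over all genes tested, with a threshold of 0.05. The E4.5 sums of EPI and PrE come from the same 6 embryos, which pairs them by design, while their deviations correlated by 0.00894 to 0.0661. The fit given has no block, and the fit with embryo as a block is an alternative. Alternatives were DESeq2 1.42.0, other scalings, filters, pseudocounts and detection limits, thinned cells, WT cells alone and leaving out embryos. Leaving out HET 8, the adjustment over all genes and the spread within lineages were added after the data were seen. The edgeR fits were tested on simulated data made from these libraries. With 200 genes changed by 2 on the log2 scale, 83% were recovered for HET against WT (13351 genes) and 100% for EPI against PrE (9762 genes). Python 3.11.15, numpy 2.4.6, pandas 2.3.3, scipy 1.17.1 and statsmodels 0.14.6 were used.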

Additional observations from a re-analysis of the deposited data

Results flagged for a closer look

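Of 51 measures of control E3.5 embryos, 8 had 1 of the 7 embryos far from the rest, by a gap of over 0.568 of the group's range, and chance flags about 1 in 20 measures. The cause was not tested for any of them.

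Embryo 15, which holds the cell HET 8, accounted for 3. Its SD of Nanog between cells was 3.09 against 0.47 to 1.13 in the other embryos, its mean Krt18 level was 239.9 CPM against 6.51 to 34.9 CPM, and its mean level of Id2, a helix-loop-helix inhibitor found in trophectoderm, was 89.5 CPM against 0 to 10.1 CPM. In HET 8 itself Nanog was at 0, Krt18 at 1753 CPM and Id2 at 575 CPM.

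WT embryo 11 was apart in a pair of measures. Its mean Utf1 level of 124 CPM stood above 19.5 to 62.4 CPM elsewhere, and its SD of Fgf4 between cells, 1.97, was below the 2.71 to 3.19 of the others, all 7 of its cells carrying Fgf4. The mean Fgf4 level of WT embryo 14 was 85.1 CPM against 18.97 to 43.8 CPM. The mean Dppa3 level of WT embryo 18, the embryo with the lowest Gata6, was 2012 CPM against 1217 to 1542 CPM. The median mitochondrial share of WT embryo 9, the embryo with the lowest Tdgf1 and Fgfr2 means, was 12.2% against 8.03 to 9.84%.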

How the results depend on the processing

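Over 274 combinations of result and alternative, 270 pair correlations, panel counts and numbers of calls stayed within 1 SD over embryos (correlations) or 1.5 times (counts). Without a filter on low values, 4585 genes lay at 2 times the trend or more, of which 258 were among the 582, the trend then being drawn over 21007 genes. Elsewhere this count ran from 478 (pseudocount of 10 CPM) to 634, and leaving out 1 embryo at a time gave 575 to 634. Gata6 with Fgf4 turned from 0.15 to -0.10 in the WT cells, and the Nanog-Gata6 r, near 0, ranged from -0.06 to 0.07 over embryos left out. Within that 1 SD the Nanog-Cdx2 r went from -0.43 to -0.09 without embryo 15 and the Gata6-Fgfr2 r, near 0, changed sign. With WT cells only, 5 against 2 embryos give no p below 0.0476, and 0 panel genes passed (adjusted p of at least 0.0851). Leaving out embryos, 17 to 20 panel genes passed. The ratio of Nanog ranged from 4.20 (without embryo 15) to 15.3. DESeq2 called 178 genes between HET and WT, where edgeR called 0. With embryo as a replicate block, which pairs the EPI and PrE sums, 865 genes differed between EPI and PrE, 749 of them among the 983 called without the block, and leaving out embryos gave 683 to 945. The block gained the call of Fgfr2, lost those of Uap1 and Spic and changed no other call of the 14 genes named for this comparison. In the single-gene tests of spread, 20 calls were lost and 1 gained: Fgf4 had a smaller spread at E3.5 without E4.5 embryo 2 (exact permutation adjusted p = 0.0114). Fgfr2 was lost at a pseudocount of 10 CPM (0.0712) or without E4.5 embryo 1, 2, 4 or 7 (0.0522 to 0.0604), Cdx2 without HET 8 or any of 7 embryos, and 7 calls with WT cells only. The depth limits statements on absence to the floor of each cell.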

Other observations

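Differences between the 7 control E3.5 embryos, taken as the share of a gene's total variance that lay between embryos, had a median of 14.5% over 8685 genes. The highest shares were those of the Y-linked genes Ddx3y (92.6%) and Eif2s3y (85.3%), Xist (83.9%), the ribosomal protein gene Rps3a1 (91.3%) and the pseudogene Atp6v0c-ps2 (90.5%). Rps3a1 and Atp6v0c-ps2 have near-identical copies elsewhere in the genome, so their levels are uncertain. Of the listed signalling genes Spry4 was high in this respect, at 61.2%.

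Pou5f1 level followed the mitochondrial share of a cell more closely than the other markers did, with a within-embryo r of -0.40 (-0.50 without HET 8), and Sox2 followed the number of genes detected (0.41, and 0.36 without HET 8). For Fgf4 and Fgfr2 the r with log2 total counts was 0.12 and 0.04.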
